A study of Mus musculus with 6 samples.

Results

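Plasmacytoid dendritic cells are dendritic cells that sense viral and self nucleic acids in endosomes and answer with large amounts of type I interferon. Their identity depends on the E protein Tcf4 (E2-2), which is opposed by Id2, together with Runx2, Irf8 and Spib. In the thymus they arrive through the circulation and are a minority of the dendritic cells. The 10 genes described here are Siglech, Sct, Cox6a2, Upb1, Havcr1, Fcrla, Tcf4, Runx2, Tlr7 and Tlr9, 10 of the 20866 genes named on the array. They were picked by symbol with values of these arrays already known, some of them for their low level in 1 group, so their levels and differences are descriptions and carry no test.

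RNA of 3 sorted thymic populations from 2 genotypes was hybridised to 6 one-colour arrays from Agilent, 1 per genotype and population. Mice of the control genotype lacked TNF (TNFalpha-KO), and mice of the other genotype lacked both TNF and RelA, the p65 subunit of NF-kB (TNFalpha and RelA double KO). Both genotypes were on the C57BL/6 strain, aged 1.5 to 2 weeks, and no group carried an intact Tnf gene, since mice without RelA alone die before birth. The populations were CD4+CD25hi thymocytes, a gate that holds regulatory T cells, pooled from 5 mice per genotype, an epithelial fraction (CD45-EpCAM+) and a fraction of blood-derived cells (CD45+EpCAM-), each made from 10 thymi of a genotype. The labels describe the CD45+EpCAM- cells as stroma enriched for macrophages or dendritic cells. How either allele was made, and whether a driver was used, is not given in the sources used here. With 1 pooled array per group, no genotype difference has a replicate check.

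Levels are log2 of the background-corrected signal minus the 75th percentile of the same array, so that 0 stands for that percentile. They compare arrays for 1 probe and not genes with each other, because probes differ in how well they bind. A difference is the double-knockout level less the TNF-knockout level (log2), and it was counted where it reached 2-fold. Between 47.3% and 66.2% of probes were well above background by the scanner software's test. The dimmest array was that of the double-knockout epithelial fraction, with a 75th percentile of 108 against 272 to 675 on the others. Its dimmest detected probe stood at -2.82, against -4.78 on the TNF-knockout epithelial array. A faint gene could therefore be detected on the latter alone without any genotype difference. Rela, the gene removed, had levels of 4.04 and 3.30 in TNF-knockout and double-knockout CD45+EpCAM- cells, a difference of -0.74. In CD4+CD25hi thymocytes and the epithelial fraction it differed by -1.86 and -2.02. Tnf, removed in every group, still gave signal on 5 of the 6 arrays, between -1.49 and -0.57, so its probe does not check the labels. The fraction in which most of the genes below differed is the one with the smallest difference in Rela itself.

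Of the 10 genes, 7 have a start site in the RefSeq promoter table of GRCm38.p6, with 9 windows. Stretches of up to 200 bases before the gene's annotated start are shown for 4 of them, with capitals marking the E-box CANNTG, the core that E proteins such as Tcf4 bind. Sct and Upb1 were among the genes with the larger genotype differences in CD45+EpCAM- cells, Siglech gave unlike readings with its probes, and Tlr9 was level in the CD45+EpCAM- pair. The stretches are chr7:141279175-141279374 on the minus strand for Sct, chr10:75406711-75406910 on the plus strand for Upb1, chr7:55767954-55768153 on the plus strand for Siglech and chr9:106222398-106222597 on the plus strand for Tlr9. All lie before the annotated start of their gene.
Sct: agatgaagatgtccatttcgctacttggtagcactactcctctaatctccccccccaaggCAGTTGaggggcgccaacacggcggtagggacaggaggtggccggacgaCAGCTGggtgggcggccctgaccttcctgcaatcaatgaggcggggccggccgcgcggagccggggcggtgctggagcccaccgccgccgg
Upb1: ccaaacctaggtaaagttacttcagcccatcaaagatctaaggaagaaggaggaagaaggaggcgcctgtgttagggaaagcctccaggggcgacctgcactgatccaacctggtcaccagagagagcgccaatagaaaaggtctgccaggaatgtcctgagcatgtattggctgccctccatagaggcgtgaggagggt
Siglech: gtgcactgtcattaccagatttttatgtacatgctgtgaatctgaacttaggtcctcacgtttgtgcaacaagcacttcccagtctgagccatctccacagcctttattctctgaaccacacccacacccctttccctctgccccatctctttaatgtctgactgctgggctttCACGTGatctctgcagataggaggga
Tlr9: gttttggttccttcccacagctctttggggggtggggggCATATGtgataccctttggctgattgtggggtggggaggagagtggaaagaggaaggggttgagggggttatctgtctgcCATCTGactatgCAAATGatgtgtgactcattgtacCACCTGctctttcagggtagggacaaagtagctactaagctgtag
Both strands were searched over the 250 bases before each start site of the promoter table, and every CAGGTG is also a CANNTG. The E-box CANNTG occurred in 7 of the 9 windows, for every gene but Upb1, and in 66.2% of all 32851 promoter windows. Its form CAGGTG, the one usually given for Tcf4, occurred in 4 of the 9 windows and in 17.2% of all windows. These 4 belong to Siglech, Fcrla, Havcr1 and Tlr9. Only the match of Tlr9 lay before the annotated start of its gene. The windows of Fcrla and Havcr1 hold no base before that start, and the match of Siglech lies past it. The Runx motif TGTGGT occurred in 2 of the 9 windows, for Siglech and Runx2, against 14.0% of all windows. A pair of GAAA runs 2 bases apart, as interferon regulatory factors bind, occurred in 1 of the 9, for Fcrla, against 2.98%. The kappa B motif of NF-kB was in none of the 9 windows and in 3.90% of all.

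In CD45+EpCAM- cells 7 of the 10 genes were at least 2-fold lower in the double knockout and none was higher. Sct, Cox6a2, Upb1, Havcr1 and Fcrla were between 4.57-fold and 17.7-fold lower, with the value for Havcr1 a lower bound, and Tcf4 and Runx2 were 2.29-fold and 2.35-fold lower. Tlr7 lay just inside 2-fold at -0.83, and Tlr9 and the brightest probe of Siglech were level. Of all 14588 genes measured in this pair, 2.08% were at least 2-fold lower and 1.82% higher, but the genes were picked partly on this contrast, so that nothing is read from the excess. The median difference was -1.71 over the 10 genes and -0.0064 over all genes. The SD between probes of the same gene was 0.21 in this pair, the only spread that it offers. It measures how probes disagree on the same 2 arrays, and holds no variation between mice, sorts or hybridisations.

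**Figure D1:**
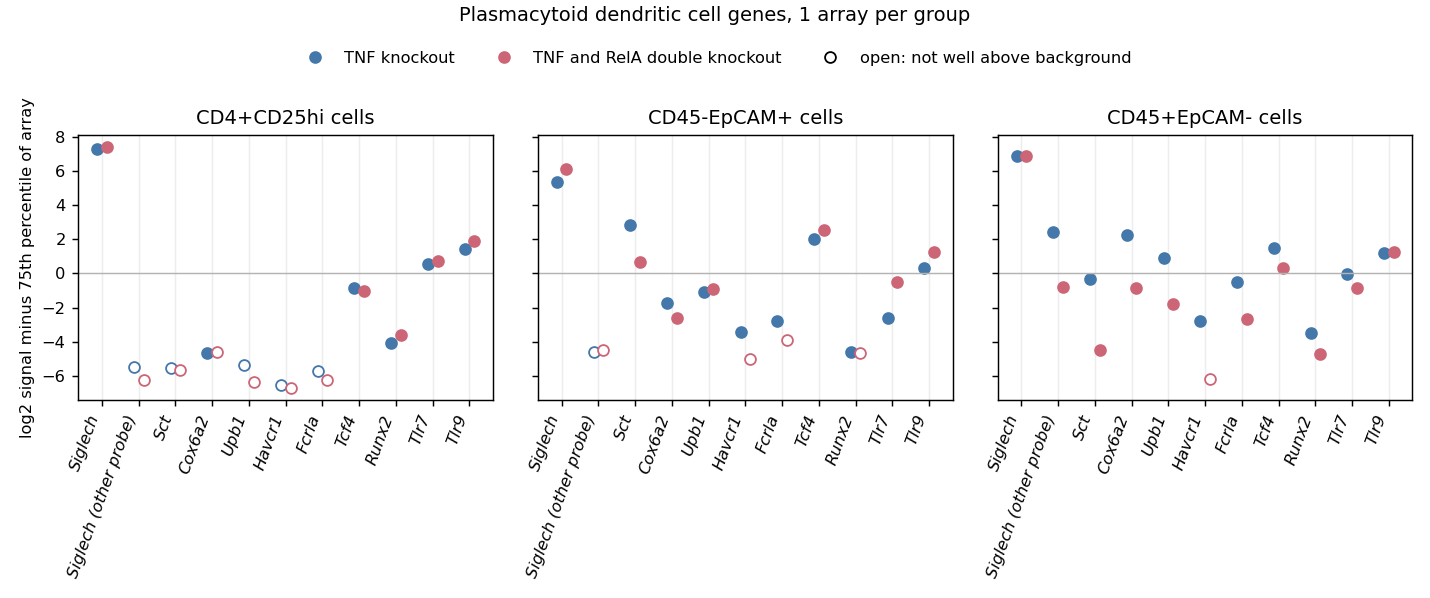
Level of each gene (log2 signal minus the array's 75th percentile, vertical axis) in the 3 sorted populations (panels), blue for the TNF knockout and red for the double knockout, 1 array each; open points were not above background by the scanner's test. In CD45+EpCAM- cells the red point lies below the blue for the other probe of Siglech, Sct, Cox6a2, Upb1, Havcr1, Fcrla, Tcf4, Runx2 and Tlr7, and the points coincide for Tlr9 and the brightest probe of Siglech.

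The secreted and metabolic genes of the group each differed by more than 2 log2 units in CD45+EpCAM- cells. Sct encodes secretin, a gut hormone whose transcript is also a marker of mouse plasmacytoid dendritic cells. In CD45+EpCAM- cells its level was -0.32 in the TNF knockout and -4.47 in the double knockout, a difference of -4.15, the lowest of all 14588 genes measured in this pair. With another background correction (normexp) it was -2.43, and Cox6a2, at -2.92, was then lower than Sct. Sct was not confined to that fraction. Its level in the epithelial fraction was 2.82 in the TNF knockout and 0.65 in the double knockout, both above the CD45+EpCAM- arrays, a difference of -2.17. Medullary epithelial cells are known to express genes of many other tissues, under the control of Aire. Aire itself differed by -1.90 in that pair, at 1.04 and -0.86, and its part in the value of Sct was not tested. In CD4+CD25hi thymocytes Sct was not well above background in either genotype.

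Cox6a2 encodes the heart and muscle form of a cytochrome c oxidase subunit, which plasmacytoid dendritic cells also express. Its level was 2.26 in TNF-knockout and -0.83 in double-knockout CD45+EpCAM- cells, a difference of -3.09. In the epithelial fraction it was lower than on either of these arrays, at -1.76 and -2.63, and differed by -0.87 (0.17 with normexp). In CD4+CD25hi thymocytes it read -4.69 in the TNF knockout and -4.59, not well above background, in the double knockout. Upb1, an enzyme of pyrimidine breakdown, stood at 0.93 and -1.81 in CD45+EpCAM- cells, a difference of -2.74. In the epithelial fraction its levels were -1.11 and -0.92, which lie between the CD45+EpCAM- genotypes and differed by 0.19, and in CD4+CD25hi thymocytes it was dim on both arrays. Of these enzymes and hormone genes, Sct alone was also at least 2-fold lower in the epithelial fraction, where 9.3% of genes were.

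Among the surface and Fc-receptor-like genes, the reading of Siglech depended on the probe. Siglech encodes Siglec-H, the surface lectin used to identify plasmacytoid dendritic cells in mice, and 2 probes carry its accession. The brightest, which represents the gene by the rule used here, had levels of 7.28 and 7.42 in CD4+CD25hi thymocytes, 5.35 and 6.11 in the epithelial fraction and 6.89 and 6.87 in CD45+EpCAM- cells. It was thus high in every population and highest in T-lineage cells, with differences of 0.14, 0.76 and -0.03. The other probe was well above background in CD45+EpCAM- cells alone. There it stood at 2.40 in the TNF knockout and -0.77 in the double knockout, a difference of -3.17, or 9.02-fold lower. Read by that probe, 8 of the 10 genes were at least 2-fold lower in this pair, with a median of -2.46. Siglec-H is not known from T-lineage or epithelial cells, where the brightest probe was high and the other was dim. Which sequence each probe reads was not tested.

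Havcr1 encodes TIM-1, a phosphatidylserine receptor. Its level was -2.81 in TNF-knockout CD45+EpCAM- cells and -6.21, not well above background, in the double knockout, so that it was at least 6.61-fold lower. It was also detected in the TNF-knockout epithelial fraction, at -3.45, and dim on the remaining 4 arrays. With normexp the bound of -2.73 became -1.30. Fcrla, an intracellular Fc-receptor-like protein that B cells also make, had levels of -0.50 and -2.69 in CD45+EpCAM- cells, a difference of -2.19. In the epithelial fraction it was detected in the TNF knockout alone, at -2.78, with a bound of -0.04, and it was dim in CD4+CD25hi thymocytes. The dimmest detected probe of the double-knockout epithelial array stood at -2.82. Detection of Havcr1 and Fcrla in the TNF-knockout epithelial fraction alone thus does not show a genotype difference. Both genes therefore reached their highest level in TNF-knockout CD45+EpCAM- cells.

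The transcription factor genes differed less. Tcf4, the E protein that sets and keeps the plasmacytoid programme, had levels of 1.50 and 0.30 in CD45+EpCAM- cells, a difference of -1.20. Its second probe, dimmer, gave -0.79 there, and the mean of both gave -0.996, just under 2-fold. Tcf4 was higher in the epithelial fraction, at 1.99 and 2.56, with a difference of 0.57, and lower in CD4+CD25hi thymocytes, at -0.86 and -1.01. By this probe the order of the 3 populations was the same in both genotypes. How many of all genes keep their order was not counted. By the second the order differed, with -3.22 in TNF-knockout CD45+EpCAM- cells against -4.23 in the TNF-knockout epithelial fraction and -4.45 in TNF-knockout CD4+CD25hi thymocytes. Runx2, which controls the exit of plasmacytoid cells from bone marrow, was faint throughout. Its levels were -3.52 and -4.75 in CD45+EpCAM- cells, a difference of -1.23, against -4.05 and -3.58 in CD4+CD25hi thymocytes, where it differed by 0.47. In the epithelial fraction it was detected at -4.60 in the TNF knockout and dim in the double knockout, whose dimmest detected probe stood at -2.82. Its other 2 probes were dim on all 6 arrays, and with normexp the difference in CD45+EpCAM- cells was -0.55, and -0.49 with the mean over probes.

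Neither nucleic acid sensor was 2-fold lower in CD45+EpCAM- cells. Tlr7 senses single-stranded RNA and Tlr9 DNA with unmethylated CpG, both in endosomes, and B cells carry them too. Tlr7 had levels of -0.01 and -0.84 in CD45+EpCAM- cells, and its second probe differed by -0.85 against -0.83. In CD4+CD25hi thymocytes it was higher than on either of those arrays, at 0.55 and 0.74. In the epithelial fraction it stood at -2.60 and -0.51, higher by 2.09 in the double knockout, the one gene of the 10 that was at least 2-fold higher anywhere, against 5.1% of genes in that pair. The second probe was dim on both of those arrays. Tlr9 had levels of 1.45 and 1.88 in CD4+CD25hi thymocytes, 0.34 and 1.27 in the epithelial fraction and 1.21 and 1.24 in CD45+EpCAM- cells. The ranges of the last pair overlap. The epithelial fraction also carried T-lineage RNA, with Cd3e at 3.89 in the TNF knockout and 4.87 in the double knockout. There 1 of 11 T cell and thymocyte genes lay below 0, against 47.0% of all genes, with a median of 0.85. Of 9 macrophage genes 2 lay below 0, with a median of 0.79. What part such RNA has in the epithelial values of Tlr7, Tlr9 and the brightest probe of Siglech was not tested.

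**Figure D2:**
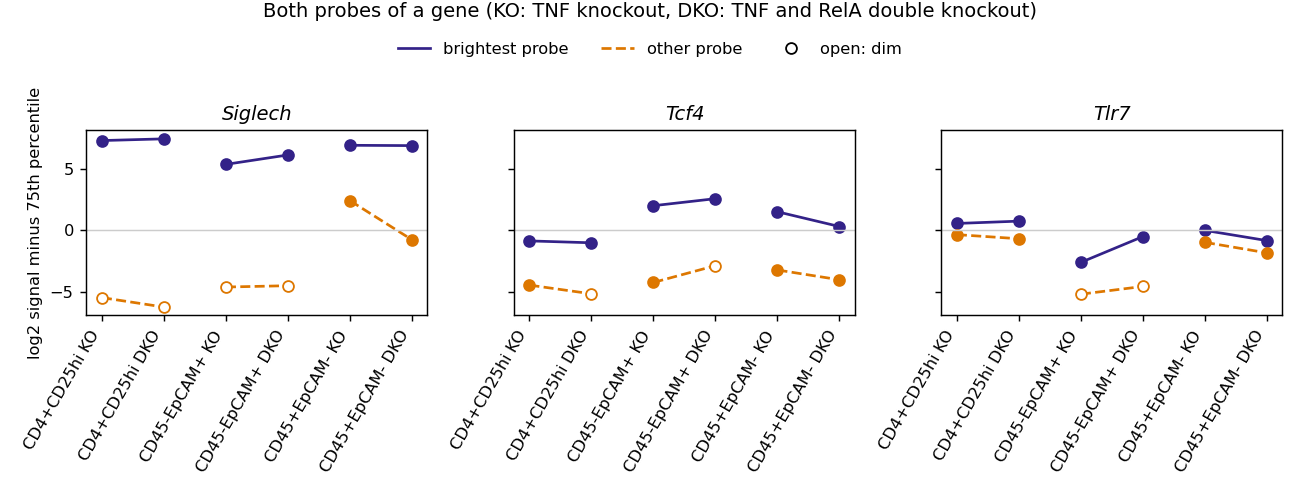
Level (log2 signal minus the array's 75th percentile, vertical axis) of the brightest (solid) and second brightest (dashed) probe of Siglech, Tcf4 and Tlr7 on the 6 arrays (horizontal axis), with open points where a probe was not well above background. The probes of Siglech part in every population, whereas both probes of Tlr7 differ by a like amount, -0.83 and -0.85, in CD45+EpCAM- cells.

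By the mean of the 2 arrays of a population, 4 genes, Siglech, Runx2, Tlr7 and Tlr9, were highest in CD4+CD25hi thymocytes and Sct and Tcf4 in the epithelial fraction. Cox6a2, Upb1 and Fcrla, 3 genes, were highest in CD45+EpCAM- cells. The mean of Havcr1 was highest in the epithelial fraction but rests on readings not above background in either fraction's double knockout, so its place is not settled. Among all 17200 genes detected on at least 1 array, 24.9% had their highest mean in CD45+EpCAM- cells. The order depended on genotype: on the TNF-knockout arrays alone 5 of the 10, Cox6a2, Upb1, Havcr1, Fcrla and Runx2, were highest in CD45+EpCAM- cells, against 26.2% of detected genes. On the double-knockout arrays alone it was 2 of 9 detected, Cox6a2 and Fcrla, against 27.7%. With Siglech read by its other probe, the count by means was 4. Each population was run on a slide of its own, so slide and population cannot be told apart, whereas both genotypes of a population shared that slide.

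In the other populations few of the genes differed. In CD4+CD25hi thymocytes 5 of the 10 were measured, and none was at least 2-fold lower or higher, against 1.28% and 1.68% of all genes. Sct, Upb1, Havcr1 and Fcrla were dim on both arrays, and Cox6a2 gave no fold. The median of the 5 was 0.19, and it was -0.073 with the mean over probes. In the epithelial fraction 8 were measured, with Sct lower, Tlr7 higher and a median of 0.38. Whether the genotype difference of a gene differs between populations could not be tested with 1 array per group.

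**Figure D3:**
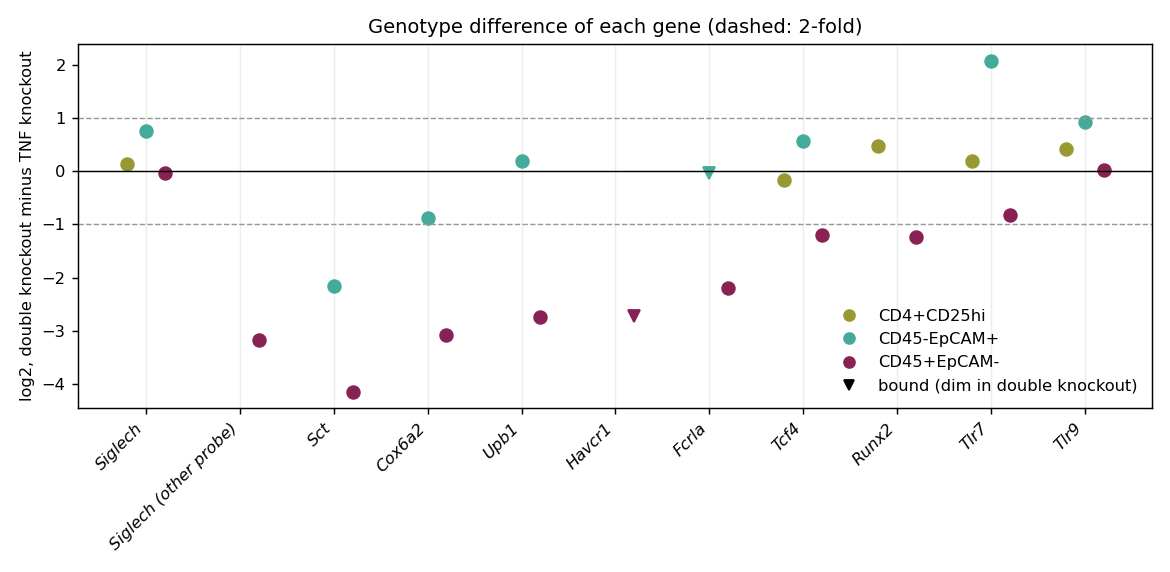
Difference between genotypes (log2, double knockout minus TNF knockout, vertical axis) for each gene (horizontal axis) in the 3 populations (colours); triangles are bounds and dashed lines mark 2-fold. Values below -2 occur for the other probe of Siglech, Sct, Cox6a2, Upb1, Havcr1 and Fcrla in CD45+EpCAM- cells, and for Sct also in CD45-EpCAM+ cells.

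Other genes known from plasmacytoid dendritic cells differed in the same direction in CD45+EpCAM- cells. A list of 30, which holds none of the 10 genes, was chosen with earlier results of these data known and is not independent evidence of direction. Of its 28 genes on the array 27 were measured in this pair, 14 were at least 2-fold lower and none higher, with a median of -1.04, and 25 of the 27 lay below 0. Over all genes measured in the pair 2.08% were that much lower, 1.82% higher and 51.2% below 0. The largest were Klk1, a kallikrein (-2.66), Rnase6, an antimicrobial ribonuclease (-2.15), and Sh3bgr (-1.82). Next came Spib, an Ets factor of plasmacytoid and B cells (-1.82), Irf8, another factor of the plasmacytoid programme (-1.78), and Pld4, an endosomal nuclease (-1.78). Bst2, the antigen PDCA-1, differed by -1.21 and Irf7, which switches on interferon genes, by -1.07. Klk1 and Klra17 belong to families of near-identical genes, so that their probes are uncertain. Pacsin1 (-0.05), Ccr9 (-0.17), Tspan13 (-0.09), Ptprs (-0.14), Atp1b1 (0.00) and Stambpl1 (0.00) were level.

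The levels behind these differences lay well apart. Spib stood at 1.58 and -0.24 in CD45+EpCAM- cells, Irf8 at 3.81 and 2.03, Klk1 at 0.84 and -1.81, Rnase6 at -0.19 and -2.34 and Pld4 at 1.12 and -0.66. These 5 are among the 6 largest differences of the list, so their direction was set by that choice. The same list held 2 genes at least 2-fold lower and 1 higher among 21 measured in CD4+CD25hi thymocytes, where 1.28% and 1.68% of all genes were. Among 24 in the epithelial fraction 3 were lower and 2 higher, where 9.3% and 5.1% of all genes were. The epithelial counts thus lie near the background. Those in CD4+CD25hi thymocytes lie above their shares but rest on 2 genes and 1. The medians were -0.12 and 0.04. In bulk RNA of a sorted fraction, fewer cells of a type and less RNA per cell cannot be told apart.

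Levels of this list were compared between populations with limma, with genotype as a covariate, over 13743 genes. Since the list was chosen with results of these data known, the tests are not independent evidence of its direction. Against CD4+CD25hi thymocytes 13 of 26 genes rose in CD45+EpCAM- cells and none fell, with 3 lower at an unadjusted p under 0.05, against 7.81% and 4.8% of all genes. Some of these genes, Bcl11a and Lifr among them, were dim on both CD4+CD25hi arrays, and among the 18 detected on all 6 arrays 8 rose and 1 fell. Ccr9, a homing receptor of thymocytes and plasmacytoid cells, was higher by 3.79 (SE 0.26, limma adjusted p = 0.011). CD45+EpCAM- cells also carried T-lineage RNA, as described below. Its part in the values of Ccr9 and Dntt, which also rose, was not tested. Tlr12 was higher by 1.61 (SE 0.22, limma adjusted p = 0.029). Spib was higher by 3.88 (SE 0.34, limma adjusted p = 0.016), and Lair1, an inhibitory receptor, by 2.69 (SE 0.33, limma adjusted p = 0.025). When any 1 of the 4 arrays compared was left out, no gene of the list passed, and none of all 13743 did. Against the epithelial fraction 6 rose and 4 fell, against 19.2% and 19.4% of all genes. Spib was lower by 2.18 than in the epithelial fraction (SE 0.34, limma adjusted p = 0.013). These counts were 2 and 2 when the TNF-knockout array of CD45+EpCAM- cells was left out, and 3 and 1 when the double-knockout array was. The 2 arrays of a population differ in genotype and are not replicates, so the error behind these p-values is how unlike the populations were in their genotype difference.

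Among regulators of the plasmacytoid programme, 5 of 15 were at least 2-fold lower in double-knockout CD45+EpCAM- cells and none higher, with a median of -0.11. Of all genes measured in this pair, 2.08% were that much lower and 1.82% higher. The 5 were Irf8, Irf7, Spib, Bcl11a (-1.50), a zinc finger factor that acts with Tcf4, and Flt3 (-1.83). Flt3 is the cytokine receptor on which dendritic cells depend. The lists overlap: Irf8, Irf7, Spib and Bcl11a are also counted in the plasmacytoid list above. Irf7 and Irf8 recur among the Tlr7 and Tlr9 genes below, and Flt3 among the conventional dendritic cell genes. Bcl11a read -0.40 and -1.90, and Flt3 0.14 and -1.70. The partner E proteins Tcf3 and Tcf12 differed by 0.03 and -0.11, and the inhibitors Id2 and Id3, which bind E proteins, by 0.08 and -0.01. Zeb2 differed by -0.04 and Cbfa2t3, a corepressor that acts with Tcf4, by -0.84.

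Of 22 measured genes that serve Tlr7 and Tlr9, 2 were at least 2-fold lower in the CD45+EpCAM- pair, Irf7 and Irf8, and none higher, against 2.08% and 1.82% of all genes. Their median was -0.15. Unc93b1, which carries the receptors to endosomes, differed by -0.65, Slc15a4, a lysosomal transporter that their signal needs, by -0.47, and the adaptor Myd88 by 0.02. Irf5 differed by -0.76, and Lgmn, a lysosomal protease, by 0.91. Type I interferon genes were faint. Of 11 on the array 8 were measured, none differed 2-fold, the median was 0.13, and no gene of the list stood above -3.49 on either array. Ifnb1 was dim on both arrays. The Ifna genes are near-identical, so their probes cannot be assigned with certainty.

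Markers of other blood cells differed in this pair as well. Of all genes measured in the pair, 2.08% were at least 2-fold lower and 1.82% higher. Of 11 conventional dendritic cell genes 4 were at least 2-fold lower, Cd209a (-1.92), Flt3, Clec9a (-1.75) and Itgax (-1.46), and none higher, with a median of -0.58. Sirpa, which conventional dendritic cells also carry, was higher by 0.50, and Zbtb46, another of their genes, was level (-0.08). The list's summed level, in multiples of the array's 75th percentile, was 8.34 in the TNF knockout and 5.46 in the double knockout. Such sums, here and below, add unlike probes, dim ones included, and follow the brightest of them. They set the 2 genotypes side by side for 1 list and do not compare lists. Of 11 B cell genes 2 were lower, Fcer2a (-1.18) among them, and 1 higher, Vpreb3 (1.21), with a median of -0.70 and sums of 11.8 and 8.48. Of 5 plasma cell genes Jchain (-2.20) and Mzb1 (-1.09), both of which plasmacytoid cells also express, were lower. Of 5 NK cell genes measured 1 was lower, Gzmb (-2.29), a granzyme that plasmacytoid cells also make, and 1 higher, Eomes (1.03), with a median of -0.66 and sums of 35.8 and 23.0. Gzma, at levels of 5.08 and 4.43, made up most of both NK cell sums. Ncr1 and Klrk1 were dim on both arrays.

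The listed macrophage and granulocyte genes went the other way, except Lyz2 (-0.37). Of 11 macrophage genes 3 were at least 2-fold higher in the double knockout, Mertk (1.13) and Fcgr1 (1.01) among them, and none lower, with a median of 0.81 and sums of 13.3 and 22.2. Of 7 granulocyte genes 5 were higher, S100a8 (2.19) and S100a9 (2.07) most, with a median of 1.33 and sums of 6.70 and 23.7. The 11 T cell and thymocyte genes all lay within 2-fold, with a median of -0.21 and sums of 438 and 391. Cd3e stood at 5.67 and 5.77, so the fraction carried T-lineage RNA in both genotypes. Thymic epithelial genes summed to 0.467 and 0.414, and Foxn1 and Psmb11 were dim on both arrays. What part a shift in the mix of myeloid, B and dendritic cells has in the values of the 10 genes was not tested.

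**Figure D4:**
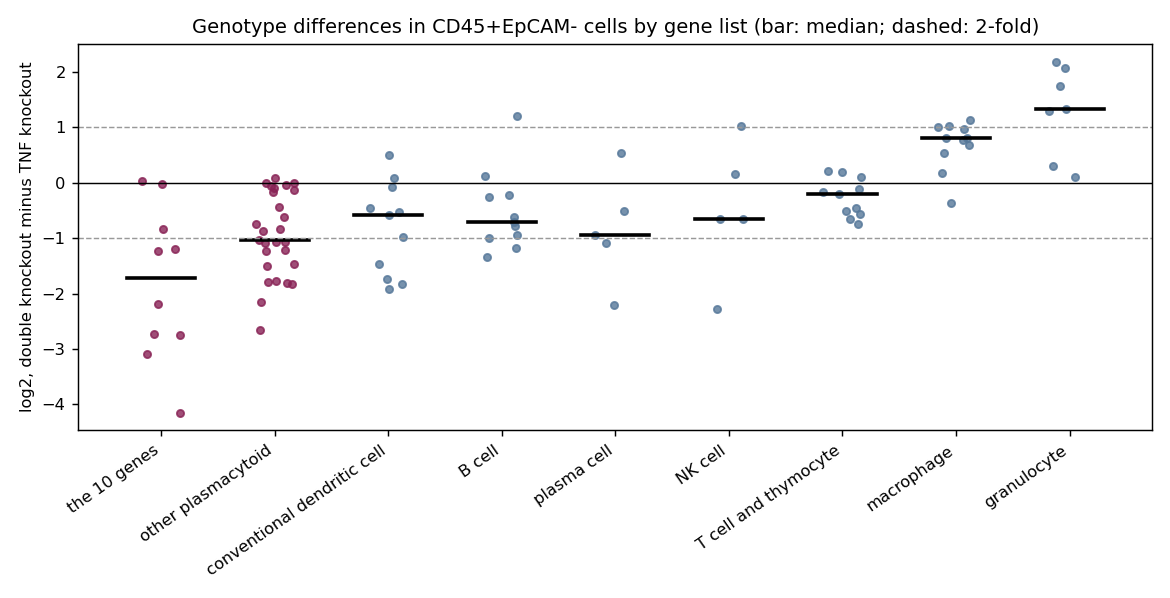
Difference between genotypes in CD45+EpCAM- cells (log2, double knockout minus TNF knockout, vertical axis) for the genes of 9 lists (horizontal axis); each point is a gene, black bars are medians and dashed lines mark 2-fold. Medians run from -1.71 for the 10 genes and -1.04 for other plasmacytoid genes to 0.81 for macrophage and 1.33 for granulocyte genes.

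The genes whose pattern over the 6 arrays was most like that of Siglech again depended on its probe. Among 4785 genes that were detected in TNF-knockout CD45+EpCAM- cells and spanned at least 2 log2 units, those with the highest Pearson correlation with the brightest probe were Selplg, Spem1, Elk4, P2ry10, Rab27a, Ptprcap, Kcnn4, Amigo2, Pecam1 and Gm4759. Their coefficients were between 0.996 and 0.999 over 6 arrays. For the other probe, looked at after its values had been seen, they included Lig4, P2rx1, Fam72a, Art1, Chek2, Tdrd5, Pdzd4, Cdk15 and Aurka, with coefficients between 0.975 and 0.981. That probe was well above background on 2 of the 6 arrays, so these coefficients rest on 4 dim readings, and the genes compared had to be detected in the group where it was high. On the brightest probe Sct had a coefficient of -0.91 and Tlr7 one of 0.92. With the other probe Sct had 0.20 and Tlr7 -0.06, so neither value held for both probes. There Cox6a2 had 0.95, Fcrla 0.89, Upb1 0.75, Havcr1 0.57, Tcf4 0.32, Runx2 0.16 and Tlr9 -0.16. On the brightest probe Cox6a2 had -0.23, Fcrla -0.40 and Upb1 -0.58. The values with the other probe rest on the same 4 dim readings. The 6 points share slides within a population, and such coefficients describe these arrays only.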

How the data were processed

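Per the labels' protocols, RNA of 6 pooled, sorted samples was amplified and dyed with Cy3. The authors deposited spot intensity values, extracted with Feature Extraction 10.5.1.1 per the file headers, although version 9.5 stands in the submitters' processing notes. The authors' deposited value table is on a log2 scale, found by comparison: it equalled the level used here, log2 processed signal less the 75th percentile, with 100% of probes within 0.05 after an offset per array between -0.00536 and -0.000413. Its column medians were -3.71, -3.61, -2.84, -2.72, -3.63 and -3.58, for CD4+CD25hi, CD45-EpCAM+ and CD45+EpCAM- cells, TNF knockout first.

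Control spots and outlier spots were left out, and log2 processed signals were averaged over the spots of a probe, which left 39419 of 39429 probes. Accessions were named through RefSeq tables of GRCm38.p6: 27472 probes (69.7%) had 1 symbol, 35 several and 11912 none. The array design names build mm9, so no probe coordinates are given. Each gene was read by its brightest probe over the 6 arrays. Where a probe was not well above background on 1 array of a pair, the dim side was replaced by the dimmest detected probe of that array, if that was brighter, and the difference is a bound, "at least". A gene dim on both arrays, or whose bound left no fold, was not counted as measured. With 6 arrays, their number sets the precision.

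The members and 14 gene lists were chosen with earlier results of these data known. Text names the members, list genes at least 2-fold apart in CD45+EpCAM- cells (up to 6 a list by size), Rela, Tnf and the 10 genes most like Siglech; other genes named were chosen after their values were seen. A few genes that this rule would name are not reported here. Populations were compared with limma 3.58.1 in R 4.3.3 over genes detected on 3 or more arrays, with genotype as a covariate (residual degrees of freedom 2, prior 1.74), at a Benjamini-Hochberg adjusted p of 0.05 and 2-fold. Scripts were tested on simulated data. Alternatives were median centring, normexp (offset 50) on the spot and background medians, because the files used hold no spot means, quantile normalization, the mean over probes, stricter detection and leaving out arrays.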

Additional observations from a re-analysis of the deposited data

Results flagged for a closer look

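For 3 of the 10 genes and 8 others of the plasmacytoid list the genotype difference had opposite signs in a pair of populations, was at least 2-fold in one of them, and passed the SD between probes of a gene in both. None of these contrasts between populations was tested, since each group had 1 array. Among the 10 genes, Tlr7 differed by 2.09 in CD45-EpCAM+ cells and by -0.83 in CD45+EpCAM- cells, a gap of 2.92. Tcf4 differed by 0.57 and -1.20 in the same populations, a gap of 1.77. With normexp the value of 0.57 was 0.15, under the SD between probes of 0.32. For Runx2 the values were 0.47 in CD4+CD25hi thymocytes but -1.23 in CD45+EpCAM- cells, a gap of 1.71. With normexp they were 0.20, under the SD between probes of 0.22, and -0.55, short of 2-fold. Between CD45-EpCAM+ and CD45+EpCAM- cells the gap was 2.20 for Bcl11a, 2.64 for Pld4, 2.45 for Lifr and 1.98 for Plac8, each higher in the double knockout in the epithelial fraction and lower in the other. With CD4+CD25hi thymocytes set against CD45+EpCAM- cells it was 2.22 for Irf8, 2.79 for Ly6d and 1.95 for Klra17, whose values are bounds. Dntt, the terminal transferase of lymphocyte precursors, read 1.54 and 0.53 in CD4+CD25hi thymocytes, lower in the double knockout, and 4.36 and 5.47 in the epithelial fraction, higher there, a gap of -2.11. The part of T-lineage RNA in the epithelial values of Dntt and Tlr7 was not tested.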

How the results depend on the processing

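The 7 genes lower in CD45+EpCAM- cells numbered 6 to 8 under the alternatives run, and the 14 of the other plasmacytoid list 10 to 14. The median of the 10 genes there, -1.71, was -1.23 with normexp, -1.23 with only genes detected on both arrays and -2.46 with Siglech read by its other probe, an alternative added after seeing the data. In CD45-EpCAM+ cells the 1 lower and 1 higher gene of the 10 became 2 and 2 with quantile normalization, and the median of 0.19 in CD4+CD25hi thymocytes was -0.073 with the mean over probes. For the other plasmacytoid list, the 2 lower genes in CD4+CD25hi thymocytes became 1 with median centring, quantile normalization, the mean over probes or detection on both arrays and 0 with normexp, and the 2 higher in CD45-EpCAM+ cells became 0 with normexp. Over the remaining lists, the 2 lower and 2 higher genes in CD4+CD25hi thymocytes became 1 and 1 with normexp, and the 2 higher became 1 with detection on both arrays. There the 7 higher in CD45-EpCAM+ cells became 3 with normexp and 12 with quantile normalization, and the 11 higher in CD45+EpCAM- cells 5 with normexp. By limma, the 13 genes above CD4+CD25hi thymocytes became 8 with genes detected on all 6 arrays, and the 0 below became 1 with normexp or with that filter. The 4 below CD45-EpCAM+ cells became 7 with median centring. Without 1 array these counts ran from 0 to 13 higher and 0 to 1 lower against CD4+CD25hi thymocytes, and from 2 to 6 higher and 1 to 5 lower against CD45-EpCAM+ cells. The lone array of a population was then assumed to vary like the others. The cause was not tested for any of these shifts, except that the detection filters leave fewer genes and the last set has fewer arrays. No fit with the replicate number as a block could be made, since the labels number no replicates; genotype, which links arrays across populations, was a covariate throughout. The 3 genes highest in CD45+EpCAM- cells by means became 5 on the TNF-knockout arrays alone, also added after seeing the data. Faint genes such as Runx2 and Havcr1 are limited by signal over background.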
